A study of Homo sapiens with 16 samples.

Results

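The genes described here are 37 targets of the transcription factor p53, read by symbol in a count table of 26485 genes over 16 RNA-seq libraries. They were chosen by name as genes known to be switched on by p53, and all 37 symbols were found. The study asked which 6-base seeds make a short interfering RNA (siRNA) toxic to cancer cells, and sequenced total RNA of PC3, a prostate cancer line, and HeyA8, an ovarian cancer line derived from HEY-T30. Each line was mock-transfected or transfected with 1 nM, per the labels (the study's methods name a higher dose), of the control siNT1, of siGGGGGC, whose seed (positions 2 to 7 of its guide strand) is GGGGGC, or of siCAG, which is built from CAG repeats. RNA was taken after 24 and 48 h. Every condition therefore had 1 library at 24 h and 1 at 48 h, and these 2 served as its replicates. The fits hold time as a term, which takes out a change with time that the conditions of a line share, and a value after ± is the standard error of a fitted log2 fold change. The labels say nothing of separate cultures, and each arm is 1 cell line, so p-values measure the spread between these libraries only. Levels are normalized read counts, that is counts scaled to a common library size over the 16 libraries, whose totals ran from 27937092 to 31790209 with a median of 29790905.5.

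p53 is kept low in unstressed cells by MDM2, a ubiquitin ligase that marks it for destruction and is itself a p53 target. On DNA damage and other stresses p53 accumulates, binds a pair of similar half-sites in its target genes and raises their transcription. The targets include brakes on the cell cycle such as CDKN1A (p21), death genes such as BBC3 (PUMA), BAX, PMAIP1 (NOXA) and the death receptor FAS (CD95), DNA repair genes, metabolic genes and a feedback arm that turns p53 off again. Many of them also answer to other factors. In bulk RNA, fewer cells of a type and less RNA per cell cannot be told apart.

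One pair of libraries stood apart. Between 24 and 48 h in HeyA8 with siCAG, 26.7% of 12410 genes with a mean of at least 50 normalized counts differed by over 2-fold, whereas in the other 7 conditions this share lay between 1.41 and 8.75%. The 24-to-48 h change in these 2 libraries followed the GC content of the transcript (Spearman's rho = -0.65 across 11137 genes, which are not independent of each other). For the 24-to-48 h change in the other 7 conditions, rho lay between -0.38 (PC3 with siGGGGGC) and 0.44 (PC3 with siCAG). Against mock at the same time, rho in HeyA8 with siCAG was 0.66 at 24 h and 0.00 at 48 h. In HeyA8 with siNT1, the reference for the siRNA results in that line, rho against mock was 0.46 at 24 h and 0.11 at 48 h, and in PC3 with siGGGGGC 0.42 and 0.08. In the other conditions it lay between -0.10 and 0.36. Counts of genes called in the siCAG comparison of HeyA8 are therefore also given without each library.

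Regulators and relatives of p53 were read in both lines first, and then the markers of each line's tissue. CDKN2A, which encodes p16 and the MDM2 inhibitor ARF, was listed at 0 to 1.03 in HeyA8 and at 129 to 1066 in PC3. MDM4, the second inhibitor of p53, was 2104 and 1961 in mock PC3 and 795 and 828 in mock HeyA8 (log2 difference, HeyA8 against PC3, -1.38 ± 0.23, adjusted p = 0.000582). The p53 relatives TP63 and TP73 did not exceed 11.3 and 39.9 in PC3, or 0 and 1.07 in HeyA8.

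Of 7 prostate markers, HOXB13 ran from 2269 to 13746 in PC3 and from 10.5 to 84.2 in HeyA8, and TMPRSS2 from 459 to 1050.0 in PC3 and was listed at 0 in HeyA8. The prostate genes KLK3 and KLK2 were listed at 0 in all 16 libraries, so these defining markers were absent from PC3. Of 7 ovarian and Muellerian markers, PAX8 was the most abundant in HeyA8 (1976 to 7449, against 41.6 to 178 in PC3), MSLN ran from 321 to 1537 (27.3 to 57.6 in PC3), and SOX17, MUC16, FOLR1 and ESR1 stayed at or below 29.8 there. WT1 overlapped between the lines (203 to 547 in HeyA8, 247 to 393 in PC3), while ESR1 was listed at 0 in HeyA8 and reached 53.8 in PC3, and MUC16 reached 18.9 in PC3. The epithelial genes CDH1 (0 to 3.22) and KRT19 (2.23 to 16.6) were near 0 in HeyA8, and EPCAM did not exceed 55.2. The keratins KRT8 (9070.2 to 34485 in HeyA8, 3394 to 7082 in PC3) and KRT18 (8781 to 24638, against 4575 to 8531) were abundant in both lines and higher in HeyA8. Of the mesenchymal genes, VIM ran from 138935 to 239777 in HeyA8 and from 22327 to 31133 in PC3, while CDH2 overlapped between the lines (4427 to 6433 and 3427 to 7480.0). Of the leukocyte and endothelial markers, CD3E was listed at 0 throughout and PTPRC did not exceed 11.0. PECAM1 reached 139 in PC3, and in HeyA8 it was 13.3 and 9.20 with siNT1 and 14.2 and 60.2 with siCAG, and VWF in HeyA8 was 12.3 and 1.15 with siNT1 and 29.6 and 21.2 with siCAG. The summed level of these 5 markers in HeyA8 was 1831 and 1142 with siNT1 and 3600.1 and 1737 with siCAG, most of it CD68, which tumour cells also express, with PTPRC at 0 and 1.12 in the siCAG libraries. The part of other cells in the results below was not tested.

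In mock-transfected cells most of the 37 listed p53 targets were higher in HeyA8 than in PC3. Of the 36 targets that passed the filter on low counts, 24 were higher and 2 lower (edgeR quasi-likelihood test, Benjamini-Hochberg adjusted p under 0.05), beside 19.9% of all 15887 genes tested that were higher and 25.6% that were lower. The median log2 difference was 1.33 over the targets and -0.09 over all genes. The 36 include TNFRSF10D and SPATA18, which passed the filter only through HeyA8, where they are high. Of the 34 targets that pass it within each line, 22 were higher and 2 lower, with a median of 1.16, beside 20.5 and 21.4% of 13192 such genes and a median of 0.03. A separate list of 35 further p53 targets, read below, did not share this shift. Of these 35, 11 were higher and 6 lower in mock HeyA8, and the median was -0.07, with 17 positive and 18 negative values. TNFRSF10C, a decoy receptor for the death ligand TRAIL, was too low to test, with 0 to 8 reads in any library. The 2 lines differ in tissue of origin and many other respects, and these cannot be told apart here.

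All 6 cell cycle brakes had a positive difference and 5 passed the test. CDKN1A, the inhibitor of cyclin-dependent kinases, was 9274 at 24 h and 6892 at 48 h in HeyA8 and 545 and 289.5 in PC3 (log2 difference 3.88 ± 0.34, adjusted p = 7.62e-06). The polo-like kinase PLK2 was 28431 and 26253 in HeyA8 and 1976 and 1569 in PC3 (4.01 ± 0.22, adjusted p = 7.23e-07). The libraries of the 2 lines did not overlap for either gene. PLK3 (1.94), the antiproliferative gene BTG2 (2.24) and the DNA damage gene GADD45A (1.04) also passed. Of the feedback genes, MDM2 was 9769.7 and 7707 in HeyA8 and 2049 and 2357 in PC3 (1.92 ± 0.37, adjusted p = 0.00177), and RPS27L (2.27) and the F-box gene FBXO22 (0.79) were higher as well.

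Among the genes of mitochondrial apoptosis, BBC3 was 163 and 209.8 in HeyA8 and only 7.29 and 16.6 in PC3 (4.03 ± 0.43, adjusted p = 2.95e-05). Its PC3 values rest on 8 and 19 reads. BAX, which permeabilises the mitochondrial membrane, was 5196 and 5458 against 1002 and 904 (2.55 ± 0.35, adjusted p = 0.000162), and the exonuclease gene AEN also passed (1.67). PMAIP1 overlapped between the lines (1446 and 929.8 in HeyA8, 918 and 1271 in PC3). The death receptor FAS was 2893 and 1976 in HeyA8 and 131 and 79.4 in PC3 (4.24 ± 0.38, adjusted p = 9.26e-06), and TNFRSF10B, the TRAIL receptor DR5, differed by 1.04. The decoy receptor TNFRSF10D had 6817 and 5587 reads in HeyA8 and 3 and 0 in PC3. SPATA18, a gene of mitochondrial quality control, had 312 and 152 reads against 2 and 1, and TRIM22, an interferon-inducible gene, 870 and 478 against 4 and 4. These 3 genes were thus close to undetected in PC3, and no fold is given for them.

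The repair genes DDB2 (1.1) and POLH (1.08), the metabolic genes SESN1 (1.66) and TIGAR (2.1), the autophagy gene DRAM1 (1.21) and the signalling and other genes NOTCH1 (1.49), ZMAT3 (3.03) and CYFIP2 (1.44) were also higher in HeyA8 on the log2 scale. TP53I3, a quinone oxidoreductase, was 571 and 514 in HeyA8 and 374 and 487 in PC3 and did not pass (0.49 ± 0.33, adjusted p = 0.256). The 2 exceptions were GDF15, a secreted stress cytokine, at 65.5 and 37.7 in HeyA8 and 665 and 903 in PC3 (-4.07 ± 0.58, adjusted p = 0.000218), and PHLDA3, an inhibitor of AKT, at 1144 and 978 in HeyA8 and 2263 and 1874 in PC3 (-1.01 ± 0.32, adjusted p = 0.0244).

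**Figure D1:**
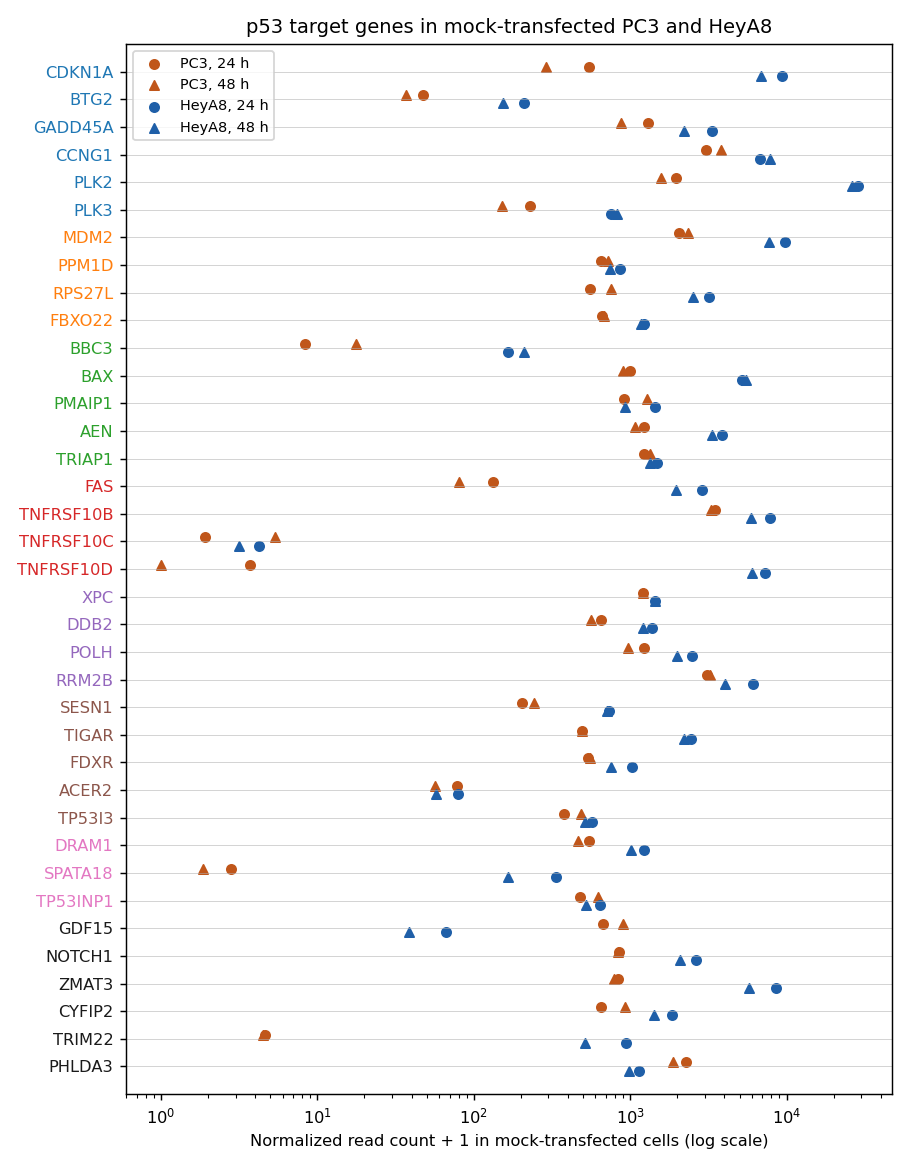
Normalized read count plus 1 (log axis) of each of the 37 p53 target genes in mock-transfected PC3 (orange) and HeyA8 (blue), with circles for 24 h and triangles for 48 h and gene names coloured by role. The HeyA8 points lie to the right of the PC3 points for most genes, TNFRSF10D, SPATA18 and TRIM22 are near the left edge in PC3, and GDF15 and PHLDA3 are the genes called lower in HeyA8.

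Transfection of the control siRNA was compared with mock next, since siNT1 is the reference for the other siRNAs. In PC3, 0 of 34 targets passed the adjusted threshold (0.231% of all genes did), 6 had an unadjusted p under 0.05, all higher (9.01% of all genes in either direction), and DESeq2, a second count test, called 2 higher (1.76%). The 2 were CDKN1A and GDF15. CDKN1A was 545 and 289.5 in mock and 1342 and 842 with siNT1 (log2 fold change 1.43 ± 0.27, adjusted p = 0.128 in edgeR), and GDF15 was 665 and 903 in mock and 2997 and 2592 with siNT1 (1.8 ± 0.48, adjusted p = 0.271). Both siNT1 libraries were above both mock libraries for each gene, and also for BBC3 (7.29 and 16.6, then 27.5 and 36.8). The siNT1 libraries of PC3 were both above both mock libraries for 15 of 34 targets and both below for 3 (22.0 and 23.7% of all genes). In HeyA8, 0 of 36 passed (0 of 13872 genes did), 3 had an unadjusted p under 0.05, all higher (1.28% of all genes), and DESeq2 called 0 (0.00721%). Both siNT1 libraries were above both mock libraries there for 11 of 36 targets and below for 2 (18.9 and 21.5% of all genes). CDKN1A in HeyA8 was 9274 and 6892 in mock and 13136 and 11743 with siNT1 (0.63 ± 0.25, adjusted p = 1). Fitted on the 4 compared libraries alone, 10 targets were called higher in HeyA8, where 903 of all genes were higher and 671 lower.

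In PC3, siGGGGGC raised 5 p53 targets and lowered 2, the latter a share close to that of all genes. With all 8 PC3 libraries in the fit and time as a term, 5 of 34 targets were higher than with siNT1 (3.67% of all 15136 genes tested) and 2 were lower (6.00%), and the median log2 fold change was 0.09 over the targets and 0.00 over all genes. By time, the median log2 ratio of the targets to siNT1 was 0.23 at 24 h and -0.10 at 48 h, with 0 over 2-fold higher and 2 over 2-fold lower at 24 h (2.79 and 9.48% of all genes) and 6 and 5 at 48 h (7.91 and 11.3%). The 5 called higher were the kinase PLK2, the damage-recognition gene XPC, the autophagy genes DRAM1 and TP53INP1, and CYFIP2, a partner of the actin regulator WAVE. The 2 that fell were CDKN1A and FAS.

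FAS was 202 at 24 h and 154 at 48 h with siNT1 and 71.4 and 31.2 with siGGGGGC, below siNT1 at both times (log2 fold change -1.9 ± 0.27, adjusted p = 0.0131). The mock level was 131 and 79.4, between the 2 at both times. ACTA2, which overlaps FAS on the opposite strand, was 28.4 and 32.1 with siNT1 and 24.1 and 44.4 with siGGGGGC, and whether the counting used strand is not given in the sources used here. CDKN1A was 1342 and 842 with siNT1 and 837 and 257 with siGGGGGC (-1.17 ± 0.27, adjusted p = 0.0392). Against mock instead of siNT1, the fold change of CDKN1A was 0.26 and did not pass (adjusted p = 0.502, edgeR), and siNT1 itself was above mock for this gene. FAS fell against mock too (-1.09, adjusted p = 0.028, edgeR).

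Of the genes that rose, PLK2 was 1839 and 1767 with siNT1 and 2771 and 3165 with siGGGGGC (0.7 ± 0.17, adjusted p = 0.0465), DRAM1 527 and 586 and then 917 and 1209 (0.9 ± 0.21, adjusted p = 0.0396). XPC was 995 and 997 and then 1498 and 2086 (0.81 ± 0.18, adjusted p = 0.0357), and CYFIP2 464 and 654 and then 787 and 1594 (1.02 ± 0.22, adjusted p = 0.0335). In each of these 4 both siGGGGGC libraries were above both siNT1 libraries. TP53INP1 was 447 and 780.0 and then 709 and 2036 (1.04 ± 0.26, adjusted p = 0.0473), so its groups overlapped, although it was higher at each time. BTG2 was also higher in both libraries (56.8 and 63.3, then 102 and 146) but did not pass (1.02 ± 0.3, adjusted p = 0.0672). MDM2 (0.04), GADD45A (-0.04), SESN1 (0.13), BBC3 (0.23), BAX (-0.39), PMAIP1 (-0.61), TNFRSF10B (-0.19), TP53I3 (-0.39) and GDF15 (-0.47) did not pass either. GDF15 went opposite ways at the 2 times, from 2997 and 2592 with siNT1 to 3459 and 928 with siGGGGGC. Between the 2 siGGGGGC libraries 10 of 36 targets differed by over 2-fold, beside 7.71% of all genes with a mean of at least 50 normalized counts. CDKN1A, FAS, GADD45A, GDF15 and PHLDA3 were lower at 48 h and CYFIP2 and TP53INP1 higher. The other 3, SPATA18, TNFRSF10D and TRIM22, had at most 29 reads in these libraries. The mean of at least 50 was taken over all 16 libraries, and these 3 reached it only through HeyA8. GADD45A was lower at 48 h with siNT1 too (2316 and 1261, and 2400.3 and 1181 with siGGGGGC). Of the 7 calls 4 held against mock (FAS, PLK2, DRAM1 and TP53INP1), while CDKN1A, XPC (0.54, adjusted p = 0.066, edgeR) and CYFIP2 (0.54, adjusted p = 0.112, edgeR) did not pass. Another 5 targets passed only against mock, BTG2 (1.57), GADD45A (0.65), BBC3 (1.67) and ACER2 (1.3) higher and CCNG1 (-0.76) lower, so that 7 were higher and 2 lower, beside 8.83 and 12.3% of all genes. GDF15, at -0.47 against siNT1, was at 1.33 against mock and did not pass.

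The count of 7 rested on the libraries used. Without the 48 h siGGGGGC library 1 target was called (3.99% of all genes), without the 24 h one 16 (23.5%), and without either siNT1 library 0 (0 of all genes). The fit with no term for time called 0 (4.13% of all genes), and that on the 4 compared libraries alone called FAS only (2.99% of all genes). DESeq2 called 8 higher and 3 lower (7.64 and 11.3% of all genes), all 7 of the edgeR calls among them.

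The guide strand of siGGGGGC can pair through its seed with GCCCCC in a messenger RNA. The longest annotated 3′UTR (GENCODE 44, hg38) held this match in 14 of the 37 targets (37.8%) and in 32.5% of the 12690 protein-coding genes tested in PC3. CDKN1A held the most, 4 matches in a 3′UTR of 1537 bases, and FAS held 2 in one of 15155 bases, beyond the end of the gene as it was counted. The matches of the 2 genes called lower are shown with 10 bases on each side, on the + strand of hg38, with the seed match in capitals.
CDKN1A site 1, chr6:36685933-36685958: taccctggccGCCCCCtgccccccag
CDKN1A site 2, chr6:36685940-36685965: gccgccccctGCCCCCcagcctctgg
CDKN1A site 3, chr6:36686760-36686785: agcagcgaccGCCCCCtcctctagct
CDKN1A site 4, chr6:36686807-36686832: ggtggcacagGCCCCCttgagtgggg
FAS site 1, chr10:89022563-89022588: tgacacttatGCCCCCcgtcctccaa
FAS site 2, chr10:89025017-89025042: gagtttccctGCCCCCatccctgtgt

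Among the genes called higher, CYFIP2 held 1 match and PLK2, XPC, DRAM1 and TP53INP1 held none. In PC3 the 14 targets with a match had a median log2 fold change of -0.11 and the 20 tested targets without one 0.17, beside -0.09 and 0.04 over all protein-coding genes with and without it. In HeyA8 the same medians were -0.06 (14 targets) and 0.16 (22 targets), beside -0.10 and 0.05. In both lines the sign of the median was the same in the targets as in all protein-coding genes, and these medians are a description without a test.

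In HeyA8, siGGGGGC moved no target past the threshold. Of 36 tested, 0 were called, and so were 0 of all 13872 genes (edgeR). An unadjusted p under 0.05 was reached by 3 targets, all higher (9.75% of all genes in either direction), and DESeq2 called 1, ACER2 (2.29% of all genes). ACER2, an alkaline ceramidase, was 59.5 and 55.2 with siNT1 and 123 and 242 with siGGGGGC (log2 fold change 1.59 ± 0.41, adjusted p = 0.314 in edgeR). CDKN1A was 13136 and 11743 and then 8687 and 11759.7 (-0.32 ± 0.25), and MDM2 8404 and 7748 and then 9721 and 11782 (0.36 ± 0.43). Larger values were seen at 48 h for some genes. PMAIP1 was 1400.4 and 1027 with siNT1 and 1796 and 2877 with siGGGGGC, TP53INP1 670.4 and 622 and then 902 and 2402. Over 2-fold higher were 1 target at 24 h and 5 at 48 h (2.31 and 8.54% of all genes), and none was over 2-fold lower at either time (3.59 and 9.48%). Fitted on the 4 libraries alone, ACER2, PMAIP1, TNFRSF10D, TP53INP1 and ZMAT3 were called higher, as were 3.09% of all genes.

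The spread between libraries was wider in HeyA8 (biological coefficient of variation 28.2%) than in PC3 (18.0%). The difference between the 2 lines was therefore tested directly, in 1 fit over the 16 libraries. For siGGGGGC it passed for 0 of 36 targets and 0 of 15887 genes in edgeR. The 36 include TNFRSF10D and SPATA18, which passed the filter on low counts only through HeyA8. Of the 34 targets that pass that filter within each line 0 were called, as were 0 of 13192 such genes. Unadjusted, 2 targets were higher and 4 lower in HeyA8 (6.63% of all genes in either direction), and DESeq2 called 0 (0.120%). FAS had a difference of 1.78 ± 0.46 and PMAIP1 of 1.5 ± 0.57 on the log2 scale, with adjusted p-values of 0.667 and 0.726. The fitted difference of TNFRSF10D (-3.02 ± 1.21, adjusted p = 0.731) rests on 0 to 29 reads a library in PC3. The fall of FAS and CDKN1A in PC3 was thus not shown to differ from HeyA8.

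siCAG raised 6 p53 targets in HeyA8 and lowered none. Of 36 tested, 6 were higher than with siNT1 and 0 lower, beside 2.88% and 4.93% of all 13872 genes. The median log2 fold change was 0.63 over the targets and -0.01 over all genes, and 32 of 36 values were positive. Both siCAG libraries lay above both siNT1 libraries for 24 of the 36 (33.3% of all genes) and below for 0 (22.1%). An unadjusted p under 0.05 was reached by 19 targets, all higher (2006 of all genes were higher at this level), and DESeq2 called 13, all higher (1152 of all genes). Normalized levels use 1 scaling over the 16 libraries, which puts the ratio of siCAG to siNT1 in HeyA8 0.14 higher on the log2 scale than the scaling within the line used for the fold changes. In the other comparisons within a line this shift was at most 0.03.

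GDF15 had the largest fold change. It was 80.1 at 24 h and 58.6 at 48 h with siNT1 and 746 and 966 with siCAG (log2 fold change 3.52 ± 0.38, adjusted p = 0.00735), and stayed at 59.9 and 61.3 with siGGGGGC and 65.5 and 37.7 in mock. CDKN1A was 13136 and 11743 with siNT1 and 57022 and 60791 with siCAG (2.11 ± 0.26, adjusted p = 0.00993). BTG2 was 284 and 264 and then 922 and 918 (1.61 ± 0.25, adjusted p = 0.0192). In all 3 genes the 2 siCAG libraries stood well above the other 6 HeyA8 libraries. PUMA, the BCL2-family killer encoded by BBC3, had 249 and 307 with siNT1 and 1124 and 879.8 with siCAG (1.73 ± 0.29, adjusted p = 0.0231). CYFIP2 was 1594 and 1478 and then 5134 and 4217 (1.46 ± 0.21, adjusted p = 0.0175), and XPC 1287 and 1253 and then 3204 and 2920.5 (1.13 ± 0.24, adjusted p = 0.0416). The 2 time points of siCAG differed by less than the step from siNT1 in these 6 genes.

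**Figure D2:**
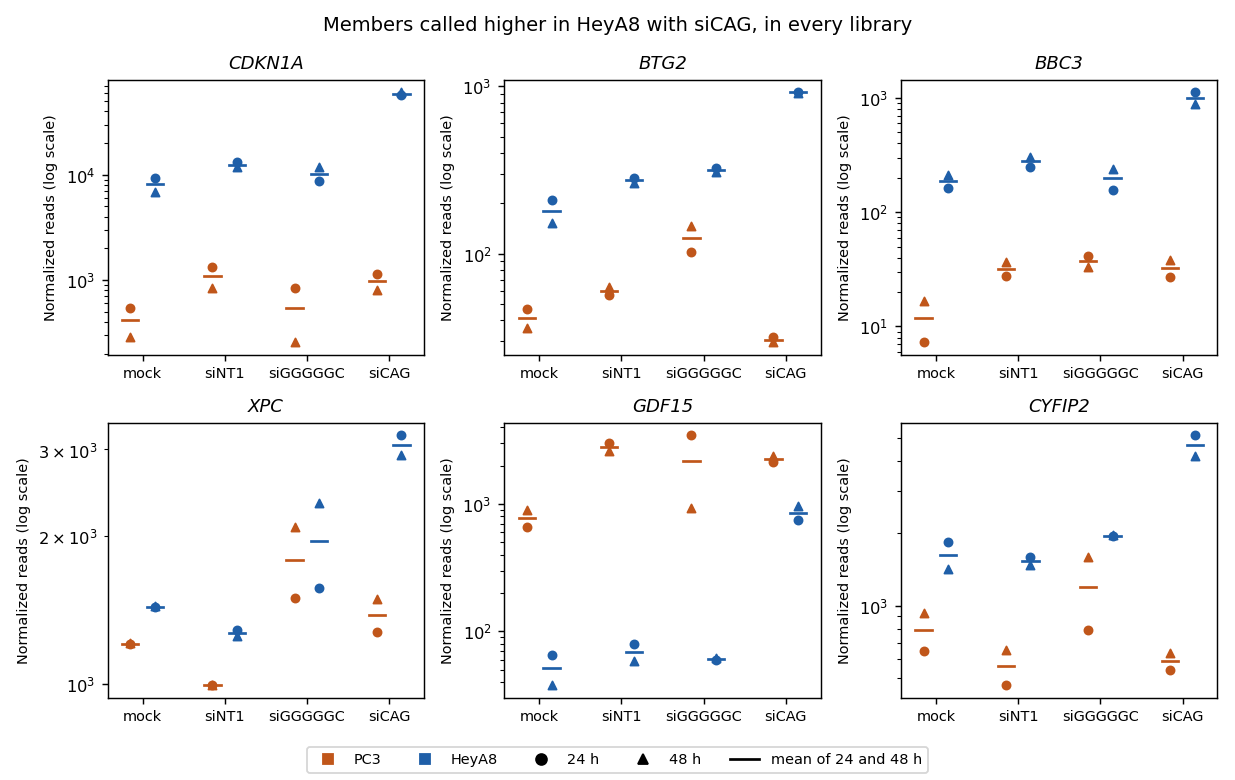
Normalized read counts (log axis) in every library of the 6 targets called higher in HeyA8 with siCAG, by treatment, in PC3 (orange) and HeyA8 (blue). Circles are 24 h, triangles 48 h and bars the mean of the 2. The HeyA8 siCAG points are the highest blue points in each panel, and the PC3 siCAG points lie near those of siNT1 except for BTG2, where they are lower, and XPC, where they are higher.

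By role, 4 of the 6 cell cycle brakes had a positive fold change. PLK3 was 919 and 929 with siNT1 and 2288 and 1674 with siCAG and did not pass (0.97 ± 0.28), GADD45A (-0.07 ± 0.32) overlapped between the groups, and CCNG1, cyclin G1, was 7252 and 9173 with siNT1 and 2267 and 9272 with siCAG. MDM2 was 8404 and 7748 with siNT1 and 11704 and 31038 with siCAG, higher in both libraries, but most of the change was at 48 h and the gene did not pass (1.21 ± 0.44, adjusted p = 0.127). All 5 genes of mitochondrial apoptosis had a positive fitted value. BAX was at 6105 and 6401 and then 13194 and 7167 (0.54 ± 0.3, adjusted p = 0.269). PMAIP1 (0.42) was 1400.4 and 1027 with siNT1 and 1106 and 2578 with siCAG, so it was below siNT1 at 24 h and above it at 48 h. All 3 tested death and decoy receptors had a positive fitted value. TNFRSF10B went from 8636 and 8023 to 17346 and 14494 (0.8 ± 0.24, adjusted p = 0.0853), while FAS overlapped (0.26 ± 0.38), with a log2 ratio to siNT1 of -0.31 at 24 h and 0.96 at 48 h.

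The 5 metabolic genes all had a positive fitted value, and none passed. TP53I3 (0.8) had a log2 ratio to siNT1 of 1.30 at 24 h and 0.54 at 48 h, SESN1 (0.48) of 0.05 at 24 h and 1.11 at 48 h and ACER2 (1.6) of 1.49 at 24 h and 1.95 at 48 h. The 3 genes of autophagy and mitochondrial turnover had the largest group median (1.55), led by TP53INP1 at 2.83 with a standard error of 0.87. Its level was 670.4 and 622 with siNT1, 1395 with siCAG at 24 h and 12239 at 48 h. TRIM22 was 768 and 443 and then 1479 and 2825 (1.85 ± 0.53, adjusted p = 0.0772). SPATA18 was 314 and 202 and then 618 and 960.1 (1.55 ± 0.43, adjusted p = 0.0717). These genes lay above siNT1 in both libraries but differed between 24 and 48 h and did not pass.

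**Figure D3:**
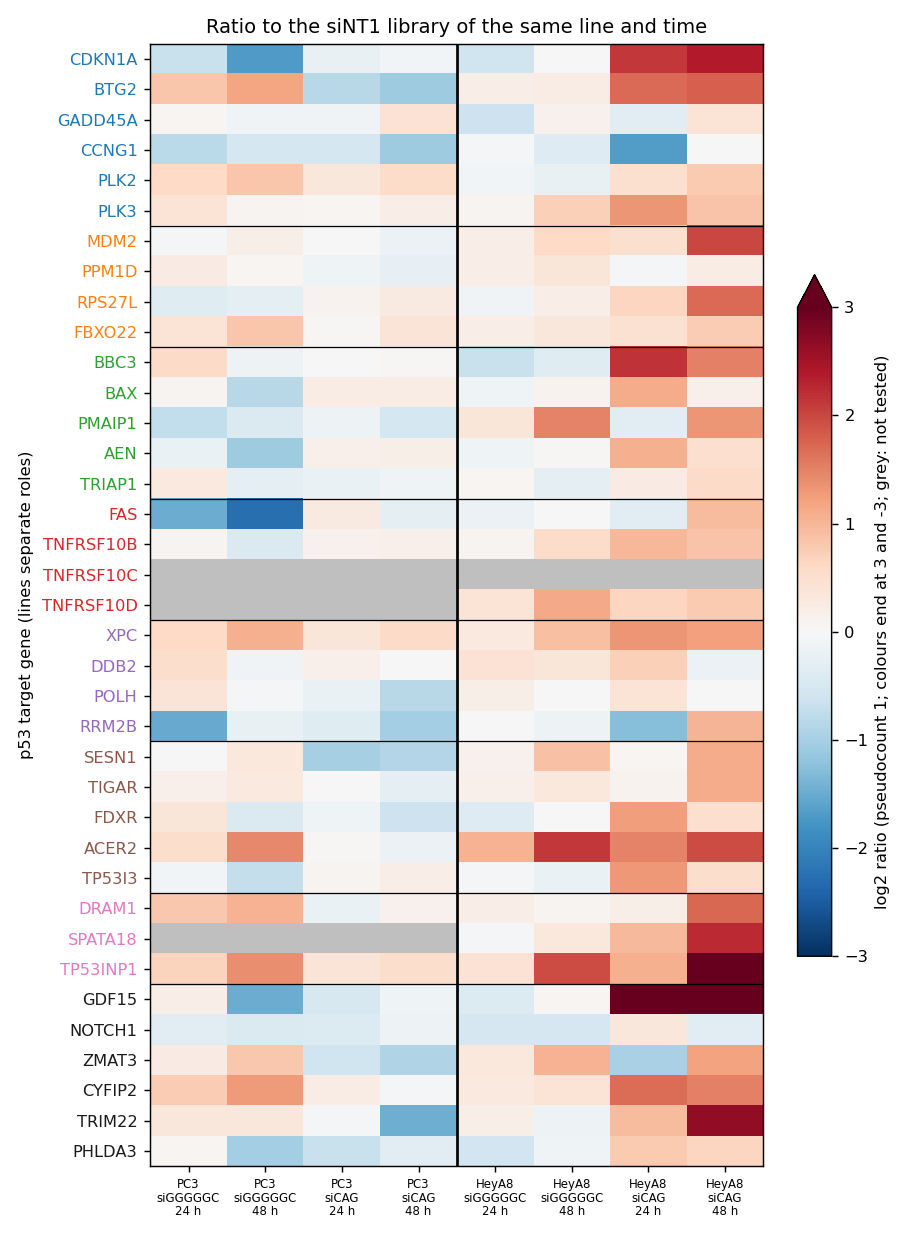
Log2 ratio of each p53 target to the siNT1 library of the same line and time (pseudocount 1, red higher, blue lower, grey not tested), with 1 column per library and genes ordered by role. The 2 HeyA8 siCAG columns at the right are red for most genes, and the siGGGGGC and siCAG columns of PC3 hold both colours.

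The 2 siCAG time points in HeyA8 were also read separately. The median log2 ratio to siNT1 was 0.68 at 24 h and 0.99 at 48 h. Of the 36 targets, 27 were higher at both times and 0 lower at both, beside 38.9 and 26.9% of all genes, and 14 were over 2-fold higher at 24 h and 18 at 48 h (12.8 and 16.8% of all genes). The median log2 ratio over all genes was 0.18 at 24 h and 0.10 at 48 h. CCNG1 and RRM2B, a subunit of ribonucleotide reductase, were over 2-fold lower at 24 h. Between the 2 siCAG libraries 11 of the 36 targets differed by over 2-fold, a share near the 26.7% of all genes that did. Of these, 9 were higher at 48 h (CCNG1, DRAM1, MDM2, PMAIP1, RRM2B, SESN1, TIGAR, TP53INP1 and ZMAT3) and 2 lower (FDXR and TP53I3). The 9 had transcripts of 35.1 to 45.1% GC, and the 2 had 59.4 and 64.3%. RRM2B was 5271 and 5694 with siNT1 and 2189 and 11512 with siCAG, ZMAT3 8129 and 6714 and then 4129 and 15541. Both were thus below siNT1 at 24 h and above it at 48 h. The 6 genes called higher had 49.8 to 69.7% GC and changed by at most 0.37 on the log2 scale between the 2 times. The part of GC content in these values was not tested.

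**Figure D4:**
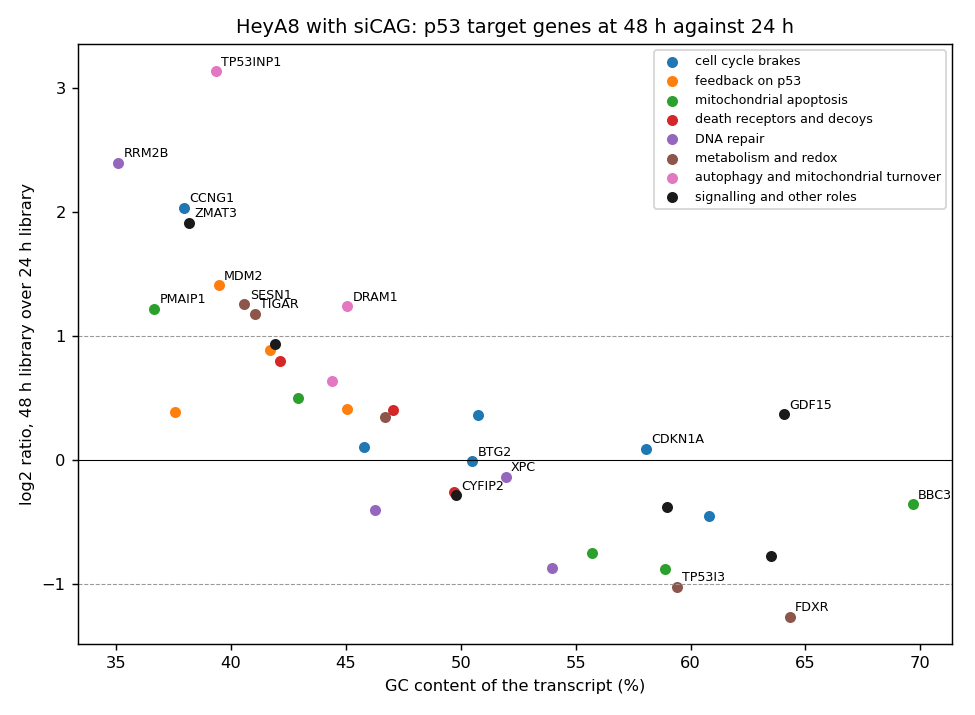
Log2 ratio of the 48 h to the 24 h siCAG library in HeyA8 for 36 p53 targets, against the GC content of the transcript in percent, with dashed lines at 2-fold and colours for role. Genes of low GC content lie above the line at 0 and most genes of high GC content below it, while CDKN1A and GDF15 lie just above it.

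Without the 24 h siCAG library 22 targets were called higher and 0 lower, beside 2022 and 2498 of 14332 genes. Without the 48 h one 14 were called higher and 3 lower, beside 1571 and 3119 of 14260 genes. Without either siNT1 library 0 targets were called, and 0.376% and 0.291% of all genes. The fit on the 4 libraries alone called BBC3, CDKN1A and GDF15 higher (1.1% of all genes). Against mock in place of siNT1, 8 targets were higher and 0 lower (3.44 and 5.53% of all genes), CDKN1A (2.74), BTG2 (2.23), BBC3 (2.32), GDF15 (3.96), CYFIP2 (1.39), PHLDA3 (1.22), PLK3 (1.20) and TNFRSF10B (1.09), on the log2 scale, and XPC did not pass.

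In PC3, siCAG moved no target past the threshold. Of 34 tested 0 passed (1.20% of all genes did), 2 had an unadjusted p under 0.05 with a higher and 5 with a lower level (13.5% of all genes), and DESeq2 called 1, SESN1, lower (3.78%). The median log2 fold change was -0.10. Both siCAG libraries lay above both siNT1 libraries for 6 targets (23.4% of all genes) and below for 11 (20.6%). CDKN1A was 1342 and 842 with siNT1 and 1144 and 799 with siCAG (log2 fold change -0.17 ± 0.26), and GDF15 2997 and 2592 and then 2157 and 2375 (-0.31 ± 0.46). BBC3 was 27.5 and 36.8 and then 27.3 and 38 (-0.01 ± 0.4), and MDM2 1887 and 1955 and then 1891 and 1733 (-0.11 ± 0.17). Each of these 4 fold changes was smaller than its standard error. Against mock in place of siNT1 the values were 1.26 ± 0.27 for CDKN1A (adjusted p = 0.0562, edgeR), 1.49 ± 0.47 for GDF15 (adjusted p = 0.133) and 1.43 ± 0.45 for BBC3 (adjusted p = 0.128), all higher than against siNT1, and -0.29 ± 0.17 for MDM2. Against mock 0 of 34 targets passed (2.58% of all genes did). SESN1, an inhibitor of mTORC1 signalling, was 252 and 322 and then 127 and 173 (-0.97 ± 0.21, adjusted p = 0.0921), and BTG2 56.8 and 63.3 and then 31.7 and 29.6 (-0.99 ± 0.32, adjusted p = 0.243), both lower at both times. On the 4 libraries alone 2 targets were called higher and 7 lower (4.92 and 11.1% of all genes).

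The test of the difference between the lines bore on siCAG directly. The response was higher in HeyA8 for 3 of 36 targets and lower for 0, beside 0.252% and 0.384% of all 15887 genes. The 36 include TNFRSF10D and SPATA18, which passed the filter only through HeyA8. Of the 34 targets that pass it within each line, 3 were higher and 0 lower, with a median of 0.84. Beside them stood 0.303 and 0.462% of 13192 such genes and a median of 0.11. The 3 were GDF15 (log2 difference 3.92 ± 0.68, adjusted p = 0.0308), BTG2 (2.71 ± 0.38, adjusted p = 0.011) and CDKN1A (2.39 ± 0.4, adjusted p = 0.0286). The median difference was 0.84 over the targets and 0.13 over all genes, 17 targets had an unadjusted p under 0.05, all higher in HeyA8 (1435 of all genes were), and DESeq2 called 6, all higher (332 of all genes). For BTG2 the difference combined a rise in HeyA8 with a lower level in PC3 that did not itself pass. CYFIP2 (1.5 ± 0.3, adjusted p = 0.0547), BBC3 (1.85 ± 0.48, adjusted p = 0.119) and MDM2 (1.41 ± 0.48, adjusted p = 0.214) did not pass. TRIM22 (3.04 ± 1.04) was among the 3 largest differences but rests on 3 to 13 reads a library in PC3. With mock as the control, BTG2 (2.78) and CYFIP2 (1.92) passed, and CDKN1A and GDF15 did not (42 of all genes were higher and 101 lower). Leaving out either siCAG library of HeyA8 gave more calls among the targets and among all genes, where more were lower than higher. Leaving out any 1 of the siNT1 libraries or of the PC3 siCAG libraries gave no target call. Such fits leave 1 library in a group. The responses to siGGGGGC and siCAG share their siNT1 libraries and are set side by side only.

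**Figure D5:**
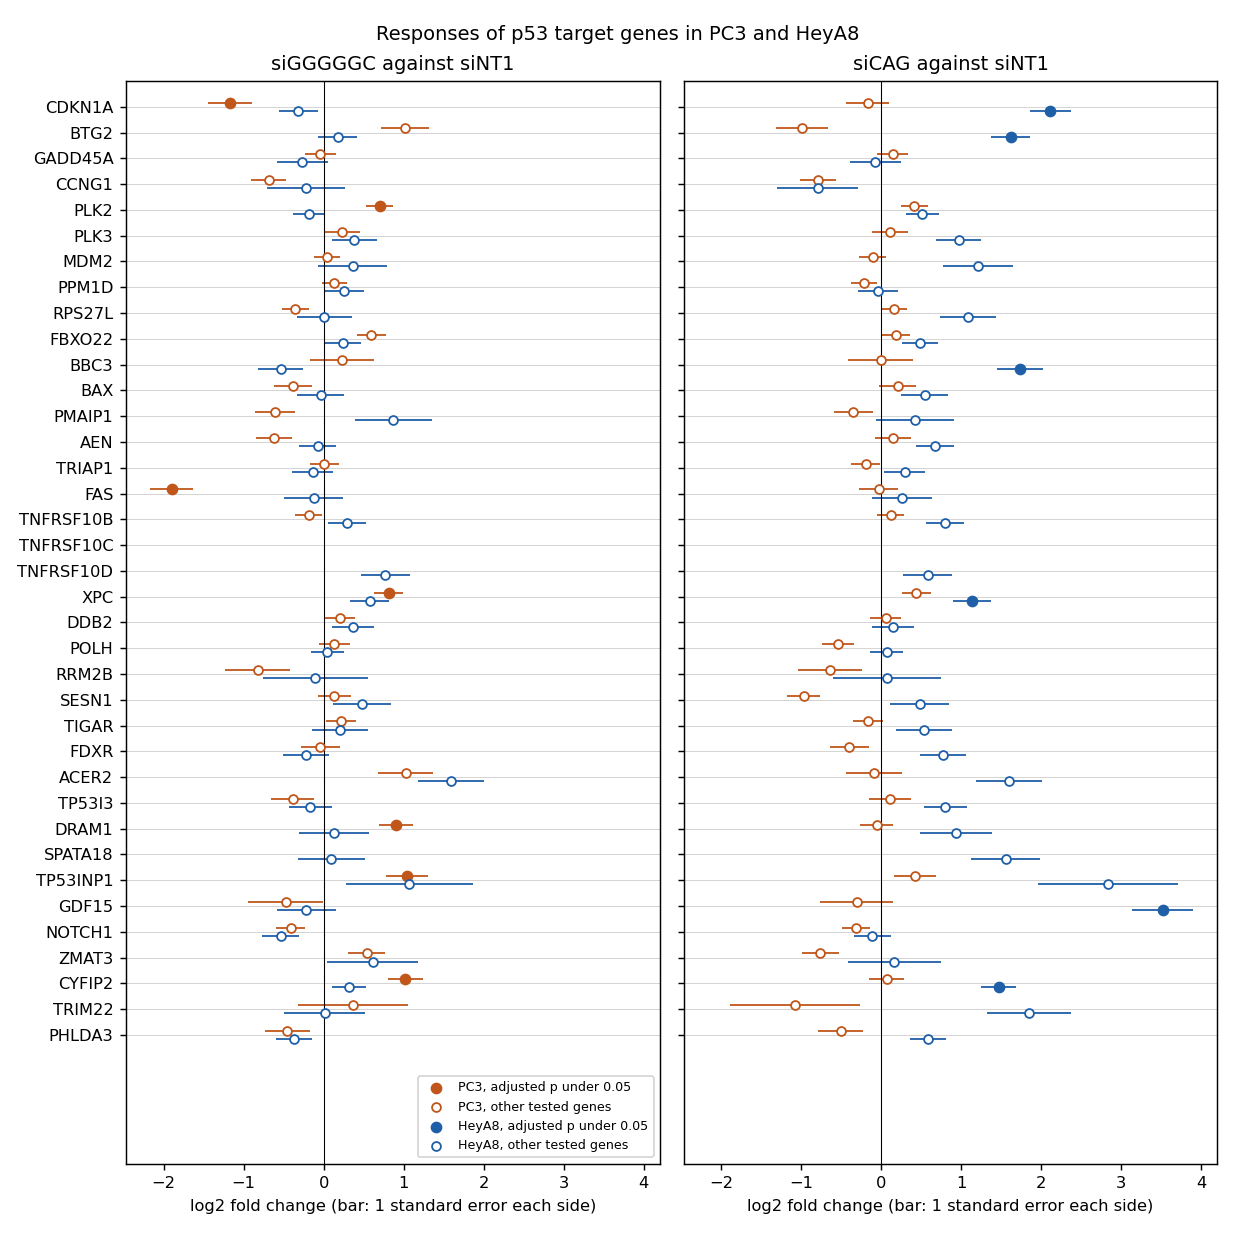
Log2 fold change of each p53 target against siNT1 in PC3 (orange) and HeyA8 (blue), for siGGGGGC (left) and siCAG (right), with bars of 1 standard error each side and filled points for an adjusted p under 0.05. With siCAG most blue points lie right of 0 and the orange points around it, and with siGGGGGC the filled points are all from PC3, with CDKN1A and FAS left of 0.

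Other genes of the pathway were read from lists of their own. Of 35 further p53 targets, 3 were higher and 0 lower in HeyA8 with siCAG (2.88 and 4.93% of all genes; median 0.58): SESN2 (1.5 ± 0.3), a relative of SESN1, TAP1 (1.88 ± 0.36), a peptide transporter of antigen presentation, and ABHD4 (1.96 ± 0.26). TAP1 went from 154 and 147 to 578 and 650.1, SESN2 from 1623 and 1261 to 5851 and 3263 and ABHD4 from 839.8 and 889.9 to 2997 and 4477. Without the 24 h siCAG library 13 of these targets were called higher and 1 lower (14.1 and 17.4% of all genes), without the 48 h one 7 and 4 (11 and 21.9%), and without either siNT1 library 0.

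p21 lets the DREAM complex shut off cell cycle genes, and of 20 such genes 0 were higher and 5 lower in HeyA8 with siCAG (4.93% of all genes were lower). All 20 fitted fold changes were negative, with a median of -2.56, and the median log2 ratio to siNT1 was -1.04 at 24 h and -5.82 at 48 h. In PC3 with siCAG all 20 were negative too, with a median of -0.48, and 0 passed, whereas 12 were called lower on the 4 compared libraries alone (11.1% of all genes). The part of p21 and DREAM in the values of either line was not tested. In HeyA8 the kinase TTK fell from 3945 and 4324 to 285 and 74.7 (-4.8 ± 0.55), E2F1 from 1783 and 1391 to 230.1 and 24.5 (-4.09 ± 0.73) and the replication gene MCM3 from 7684 and 7878 to 1836 and 801 (-2.78 ± 0.36). MCM5 went from 5331 and 5793 to 1771 and 671 and CKS2 from 3545 and 4555 to 1521 and 760.5. Others were near siNT1 at 24 h and far below it at 48 h and did not pass, such as CDC20 (-0.22 at 24 h and -6.09 at 48 h, log2 ratio) and FOXM1 (-0.17 at 24 h and -5.19 at 48 h). Without the 24 h siCAG library 20 were called lower (17.4% of all genes), without the 48 h one 16 (21.9%), and without the 24 or 48 h siNT1 library 1 and 0.

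ATF4, a factor of the integrated stress response, also drives some p53 targets. Of 10 ATF4 genes 3 were higher and 0 lower in HeyA8 with siCAG (2.88 and 4.93% of all genes). DDIT4 went from 177 and 300.1 to 5943 and 2437 (4.21 ± 0.86), DDIT3 from 148 and 266 to 899 and 836 (1.99 ± 0.3), and CEBPB from 1293 and 762 to 2852 and 2259 (1.2 ± 0.26). Without the 24 h siCAG library 4 were called higher and 2 lower (14.1 and 17.4% of all genes), without the 48 h one 9 and 0 (11 and 21.9%), and without either siNT1 library 0. In PC3 with siNT1 against mock, ATF3 rose from 63.8 and 65.4 to 531 and 447 (2.91 ± 0.25) and SESN2 from 162 and 193 to 524 and 457 (1.47 ± 0.2), as did 0.205% of all genes, and without any 1 of these 4 libraries 0 genes were called. These genes thus moved in the same libraries in which CDKN1A and GDF15 were higher, and their part in those values was not tested.

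Of 25 p53 relatives and regulators, 2 of 22 tested fell in HeyA8 with siCAG and 0 rose (4.93 and 2.88% of all genes). The checkpoint kinase gene CHEK1 went from 2145 and 2164 to 614 and 534 (-2.04 ± 0.21), and COP1, listed under its older symbol RFWD2 and encoding a ubiquitin ligase for p53, from 1277 and 1383 to 437 and 633 (-1.46 ± 0.24). Without the 24 h siCAG library 5 were lower and 6 higher (17.4 and 14.1% of all genes), without the 48 h one 8 and 6 (21.9 and 11%), and without either siNT1 library 0. In PC3 with siGGGGGC, 2 of 24 fell (6.00% of all genes), the acetyltransferase CREBBP from 2569.5 and 2749 to 1288 and 1129.8 (-1.16 ± 0.17) and the kinase HIPK2 from 18074 and 20699.7 to 11479 and 8291 (-1.0 ± 0.17). Of 34 further p53 targets tested there 1 rose and 3 fell, beside 3.67 and 6.00% of all genes. PRKAB1 rose (0.94) and KITLG (-1.65), ASCC3 (-0.95) and TLR3 (-3.13) fell, the last from 33 and 12.3 to 0.93 and 3.78 counts. Of the 20 cell cycle genes listed for DREAM 1 fell, FOXM1 (-1.36 ± 0.27), a share near that of all genes. Of the 10 ATF4 genes 2 rose, DDIT4 (1.33) and VLDLR (1.32). These 4 lists held 4 to 9 calls each without the 24 h siGGGGGC library (23.5% of all genes), 1 to 3 without the 48 h one (3.99%) and 0 without either siNT1 library. In PC3 with siCAG, FUCA1 (-1.35) and PSAT1 (-0.96) fell, as did 1.16% of all genes, and neither was called without any 1 of the compared libraries.

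The promoters were searched for the 10-base p53 half-site in its textbook consensus, on both strands, from 250 bases before to 50 after the start of the gene (RefSeq, GRCh38). Of 28 targets with a promoter sequence 4 (14.3%) held one, and of all 16199 promoters 6.07%. No target promoter held a pair of half-sites at most 13 bases apart, which 3 of all promoters did. A match is a description and not a site of binding, and sites outside this window were not searched. The 4 matches are shown on the strand of the gene, with the half-site in capitals.
AEN, chr15:88621296-88621325, + strand: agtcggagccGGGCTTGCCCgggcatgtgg
FDXR, chr17:74872986-74873015, - strand: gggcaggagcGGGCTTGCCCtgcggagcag
PLK2, chr5:58460199-58460228, - strand: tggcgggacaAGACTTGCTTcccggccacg
RPS27L, chr15:63157517-63157546, - strand: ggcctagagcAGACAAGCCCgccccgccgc

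Of these genes, PLK2 was among those called higher in PC3 with siGGGGGC, and none passed the test in HeyA8 with siCAG, where AEN was 4264 and 3756 with siNT1 and 8966 and 5349 with siCAG and RPS27L 3295 and 2928 and then 5135 and 9493. A run of at least 6 CTG, which siCAG could pair with, was found in the coding part or 3′UTR of the same transcripts in 0 of the 37 targets and in 0.483% of 18030 protein-coding genes. Among the targets, 22 of 37 overlap another gene of the table in position, and in 5 of them (FAS, TNFRSF10B, TNFRSF10C, POLH and TP53I3) that gene reached at least 10% of the target's mean level, so their counts may hold reads of the neighbour. The TRAIL receptors TNFRSF10B, TNFRSF10C and TNFRSF10D are close relatives, and how reads shared among them were counted is not given in the sources used here.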

How the data were processed

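Total RNA of 16 samples (2 lines, 4 treatments, 24 and 48 h) was sequenced as paired ends after removal of ribosomal RNA. Per the labels, reads were mapped to hg38 with STAR and assigned to genes with HTSeq, whereas the study's methods name Tophat or STAR. The deposited values are whole-number read counts per gene in 1 table, not normalized, with totals of 27937092 to 31790209 a library. Its gene length column exceeds the span of the gene for 1027 genes, so no level was divided by length and levels were not compared between genes. The titles and columns call the siRNA of the siGGGGGC group siMxy_3AB, and the group was taken from the treatment label. The target genes, the other gene lists and the tests were chosen with earlier results of these data known.

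The counts were analysed with edgeR 4.0.16 (R 4.3.3): filterByExpr, TMM scaling, and the quasi-likelihood test, fitted over all genes with the 8 libraries of a line and time as a term (3 residual degrees of freedom). Differences between lines used 1 fit over the 16 libraries, with a time term for each line. P-values were adjusted over all genes tested by the Benjamini-Hochberg method, and a gene was called at an adjusted p under 0.05. Ratios at 1 time use a pseudocount of 1. The genes named are 12 well-known targets, each target called in any comparison, the 3 largest line differences per siRNA, and, of the other lists, MDM4, CDKN2A, TP63, TP73 and up to 3 called genes in each direction, with further called genes named because their list's count was 5 or fewer. The alternatives tried were DESeq2 1.42.0, another scaling (RLE), a stricter and no filter on low counts, no time term, the compared libraries alone, mock as control, and leaving out each library. The sequences of the siRNAs are not used here. Some genes of these lists are not reported here.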

Additional observations from a re-analysis of the deposited data

Results flagged for a closer look

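The response to siCAG differed between the lines, by the test of the difference itself (edgeR), for 3 p53 targets and 5 genes of the other lists. On the log2 scale, HeyA8 minus PC3, it was 3.92 for GDF15, 2.71 for BTG2 and 2.39 for CDKN1A. It was 2.0 for SESN2, 2.13 for TAP1, 2.14 for DDIT3 and 2.59 for FUCA1, and -3.77 for TTK. For FUCA1 the level in PC3 went from 668 and 799.8 with siNT1 to 329 and 252 with siCAG, while HeyA8 held 13.8 to 48.0 counts in all libraries. The 3 targets passed in 6 to 8 of 15 alternatives each and kept the sign of the difference in all 15. The 5 other genes passed in 5 to 8 of 15 each and kept their sign in all 15. None of the 8 passed on the compared libraries alone or without any 1 of the siNT1 or PC3 siCAG libraries.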

How the results depend on the processing

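The counts of p53 targets called depended on the fit. With DESeq2 they were 11 for siGGGGGC in PC3 (7 in edgeR), 1 for siCAG in PC3 (0), 2 for siNT1 against mock in PC3 (0), 1 for siGGGGGC in HeyA8 (0), 13 for siCAG in HeyA8 (6) and 6 for the line difference of siCAG (3). DESeq2 called 18.9, 3.78, 1.76, 2.29, 19.2 and 4.22% of all genes in that order. On the compared libraries alone the target counts were 1, 9, 2, 5, 3 and 0 in the same order. These fits called 2.99, 16, 1.73, 8.86, 4.31 and 0% of all genes. For siNT1 against mock in HeyA8 the count was 10 (0 in the main fit), beside 11.8% of all genes. Without a term for time siGGGGGC in PC3 gave 0 (4.13% of all genes), and without a filter on low counts siNT1 against mock in PC3 gave 1 (0.396%). Leaving out 1 library at a time gave 0 to 16 for siGGGGGC in PC3, 0 to 22 for siCAG in HeyA8 and 0 to 12 for the line difference of siCAG. The cause was not tested. Of the targets called in a comparison and the 3 largest line differences per siRNA, CDKN1A in PC3 with siGGGGGC changed sign, at 0.26 against mock. Over all tested targets, called or not, the sign against mock was opposite to that against siNT1 for 6 of 34 with siGGGGGC and 7 of 34 with siCAG in PC3, and for 11 and 3 of 36 in HeyA8. Of the other values for these single genes, 413 kept their direction and side of the threshold, 93 kept the direction but lost the call and 1 gained it. The mock difference between the lines gave 18 to 25 target calls without 1 library, against 26, beside 26.3 to 34.9% of all genes, against 45.5%. Each condition had 1 library per time, and low genes rest on few reads. BBC3 in PC3 had 8 and 19 reads in mock and 30 to 45 with the siRNAs, and its changes against mock rest on these. Labels carry no replicate numbers shared between groups, and time took the place of a block in the fits reported.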
